A study of Mus musculus with 21 samples.

Results

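The 39 genes described here are interferon-stimulated genes, mouse genes whose transcription is switched on by interferons. They were taken by symbol from the tables of 2 lung cell types. All 39 are listed in the epithelial tables, which hold 23869 genes, and 38 in the fibroblast tables, which hold 21170 (Oas1a has no row there). The study sorted epithelial cells and fibroblasts from enzymatically digested lungs of C57BL/6 mice and measured messenger RNA by 3'SAGE-seq, in which a transcript is counted by a short tag read from its 3' end. All groups carried the Col1a2-GFP transgene, a green fluorescent reporter driven by the promoter of a collagen gene. It marks fibroblasts as far as that promoter is active in them. Epithelial cells were Epcam positive and GFP negative, fibroblasts were GFP positive and Epcam negative, and both were negative for CD31, CD45, CD146 and Ter119, markers of endothelial cells, leukocytes, pericytes and endothelium, and red cells. Each cell type has 2 libraries at embryonic day 18.5 (E18.5), shortly before birth, and at postnatal days 0.5, 2, 7 and 28 (P0.5 to P28), and fibroblasts have 1 more at P56. No treatment or infection is named for any group, so every comparison is between ages or between cell types.

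Interferons are cytokines that warn cells of infection. Type I (alpha and beta) and type III interferons act through the kinases Jak1 and Tyk2 and assemble a complex that holds Stat2 and Irf9 and binds interferon-stimulated response elements. Interferon gamma acts through gamma-activated sites and turns on Irf1 and many guanylate-binding proteins. Many of the induced proteins block viral entry, RNA or protein synthesis, and low levels of some are kept up without infection.

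The libraries held 2146071 to 5729829 reads. Values below are the authors' normalised values per gene, in which 3 reads, the most that a count of 0 allows, are worth 0.403 to 1.37 in a single library. Of the members, 29 of 39 reached a value of 3 in at least 2 epithelial libraries and were tested there among 12143 genes. Likewise 29 of 38 were tested in fibroblasts among 11954 genes. The members left out in both cell types were Oas2, Oas3 and Oasl1, which make or resemble makers of the 2'-5' oligoadenylates that activate RNase L, and Ifi44, Irgm1, Rtp4 and Zbp1, a sensor of Z-form nucleic acids. In the epithelium Oas1a, Gbp3 and Gbp7 were also left out, and in fibroblasts Mx1 and Mx2, genes of the dynamin-like GTPase family. The map of all members by library shows most of them at low values, with Ifitm3, Irf1 and Stat2 as the bright rows. Labels give replicate numbers but no animals, so the p-values reflect no more than the spread among these libraries, which may be technical.

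**Figure D1:**
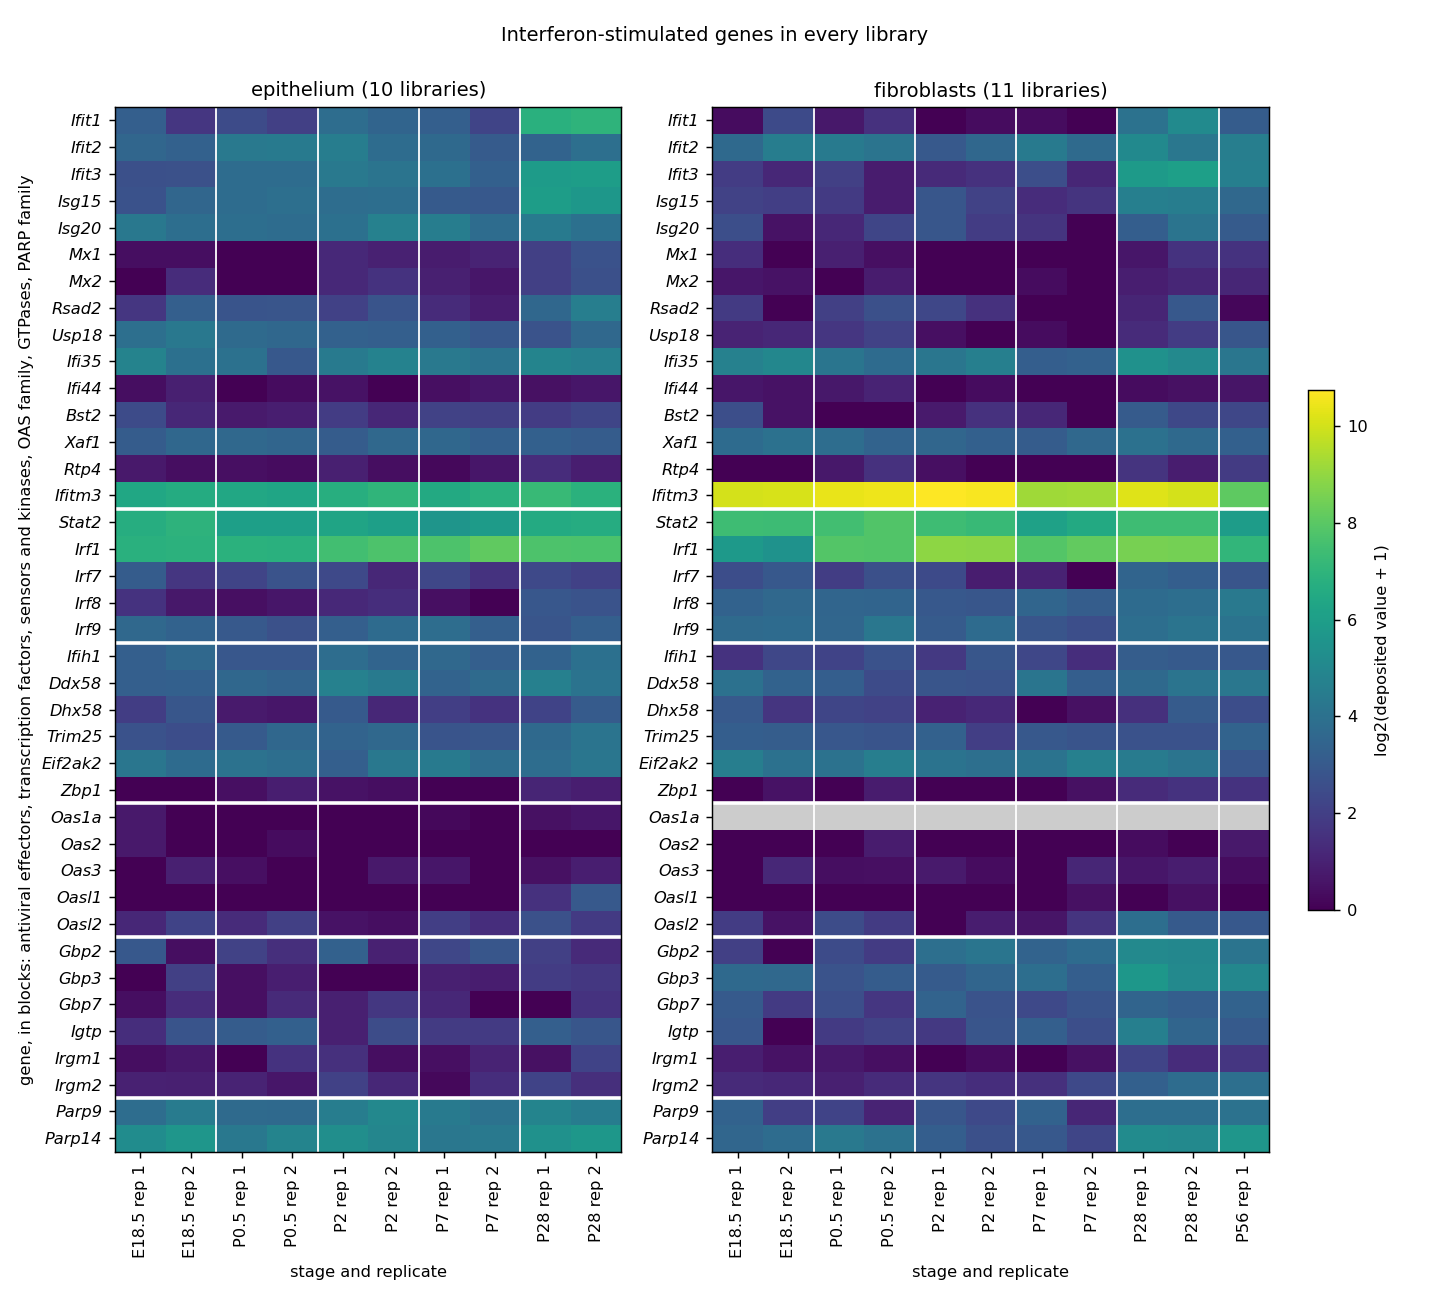
Heat map of log2(deposited value + 1) for the 39 members (rows, in blocks by role) in the 10 epithelial and 11 fibroblast libraries (columns, by stage and replicate); Oas1a is grey where it has no row. Ifit1, Ifit3 and Isg15 brighten in both P28 columns of both cell types, while Gbp2, Gbp3, Igtp and Irgm2 do so in fibroblasts.

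Several members lie side by side in the genome (GENCODE vM21 on GRCm38, the build called mm10 by the submitters' processing notes). Ifit2, Ifit3 and Ifit1 follow each other on the plus strand of chromosome 19, with Ifit3 at 34583531 to 34588731 and Ifit1 at 34640871 to 34650009. Gbp7, Gbp3 and Gbp2 do so on chromosome 3, with Gbp2 at 142620602 to 142638008 on the plus strand. Isg15 lies on the minus strand of chromosome 4 (156199424 to 156200818) and Irf1 on the plus strand of chromosome 11 (53770014 to 53778374). Exons of Igtp overlap those of Irgm2 on the same strand, as those of Irf9 do with Rnf31, and exons of Irf1, Irf7, Parp9, Dhx58, Usp18, Ifi35, Oasl1 and Eif2ak2 overlap genes of the opposite strand. The sources used here do not say whether counting used strand, so the values of these genes are uncertain to that extent. Ifit3b, a near-identical neighbour of Ifit3, has no row of its own in the tables used here, and its reads cannot be told apart from those of Ifit3.

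The promoters of Ifit1, Ifit3, Isg15 and Gbp2 hold the letters of the interferon-stimulated response element, and they are shown with that of Irf1 because the results below turn on these 5 genes. Each is the 250 bases before the RefSeq start of the gene (RefSeq, GRCm38.p6), written 5′ to 3′ on the strand of the gene. Capitals mark each match to the core of the response element, searched as GAAA, any 2 bases and GAAA again, or its reverse complement. In Irf1 they mark instead the match to TTCNNNGAA, the core of a gamma-activated site.
Ifit1, chr19:34640639-34640888, plus strand: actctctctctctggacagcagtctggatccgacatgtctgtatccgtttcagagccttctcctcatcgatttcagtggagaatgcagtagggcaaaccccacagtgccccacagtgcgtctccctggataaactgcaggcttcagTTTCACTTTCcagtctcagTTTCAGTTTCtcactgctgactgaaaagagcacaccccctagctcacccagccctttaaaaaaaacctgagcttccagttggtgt
Ifit3, chr19:34583279-34583528, plus strand: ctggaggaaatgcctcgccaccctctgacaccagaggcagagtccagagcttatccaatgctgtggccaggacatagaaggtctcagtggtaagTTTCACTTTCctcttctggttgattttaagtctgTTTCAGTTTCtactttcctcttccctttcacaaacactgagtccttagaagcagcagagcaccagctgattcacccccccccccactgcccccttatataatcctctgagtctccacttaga
Isg15, chr4:156200819-156201068, minus strand: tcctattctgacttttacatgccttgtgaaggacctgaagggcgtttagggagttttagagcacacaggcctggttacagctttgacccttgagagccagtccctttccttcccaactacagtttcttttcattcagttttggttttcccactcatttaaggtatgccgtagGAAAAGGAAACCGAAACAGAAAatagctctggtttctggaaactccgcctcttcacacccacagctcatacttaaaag
Gbp2, chr3:142620413-142620662, plus strand: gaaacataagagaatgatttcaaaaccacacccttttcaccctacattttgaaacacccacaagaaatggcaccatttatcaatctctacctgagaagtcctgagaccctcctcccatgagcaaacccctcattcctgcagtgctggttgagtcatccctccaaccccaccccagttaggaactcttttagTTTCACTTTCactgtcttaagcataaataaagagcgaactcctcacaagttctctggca
Irf1, chr11:53769764-53770013, plus strand: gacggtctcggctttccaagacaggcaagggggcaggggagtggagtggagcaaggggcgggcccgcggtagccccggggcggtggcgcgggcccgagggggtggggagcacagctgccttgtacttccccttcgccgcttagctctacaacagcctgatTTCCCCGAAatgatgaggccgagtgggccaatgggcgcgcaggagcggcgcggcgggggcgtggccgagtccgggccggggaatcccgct

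Ifit1 and Ifit3 each held 2 matches to the response element, Isg15 held 3 that overlap one another, and Gbp2 held 1. Of the 30 members with a promoter in the RefSeq table, 14 (46.7%) held a match on either strand, against 3.46% of the 27025 genes of that table. The gamma-activated core, searched on both strands in the same windows, was found in 10 of the 30 members (33.3%) and in 8.13% of all genes. The letters of the 2 motifs can overlap in a window, and a match says nothing of binding. Among tested members with a promoter entry, 9 of 11 with the response element and 6 of 14 without it passed the test for a rise from P7 to P28 in fibroblasts, with median log2 changes of 1.83 and 0.75. In the epithelium these were 5 of 9 and 1 of 14, with medians of 1.23 and 0.29. Of all tested genes 11.3% and 4.87% rose at this step. From E18.5 to P28 the counts were 7 of 11 and 3 of 14 in fibroblasts, where 18.7% of all genes rose, but 4 of 9 and 4 of 14 in the epithelium, where 13.5% did. The 1 epithelial call without the element from P7 to P28 was Irf8, which is also among the 4 of 14. Irf8 reached the value needed for testing there only through its P28 libraries, so its calls are no support for a rise.

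The step from P7 to P28 held most of the change. In the epithelium 7 of the 29 tested members rose and 0 fell, where 4.87% of all tested genes rose and 2.41% fell. In fibroblasts 17 of 29 rose and 0 fell, where 11.3% of all tested genes rose and 9.49% fell. Over any stage 12 of 29 changed in the epithelium (35.3% of all tested genes) and 20 of 29 in fibroblasts (48.9%). The median log2 change of the tested members was 0.56 in the epithelium and 1.45 in fibroblasts, against -0.03 and 0.00 over all tested genes. Changes are log2 fold changes of the value + 1, tested with limma (Benjamini-Hochberg adjusted p, threshold 0.05), a scale that understates the change of low genes. In the epithelium 8 of the 29 tested members had both P28 libraries above all 8 earlier libraries, as had 8.89% of all tested genes. In fibroblasts 15 of 29 did, with 13.2% of all genes. A member that reached the minimum value only through its P28 libraries had to differ, so these shares describe the tested members and not the 39. Of the 7 calls from P7 to P28 in the epithelium this holds for 1, Irf8, and of the 17 in fibroblasts for 0. Among the 8 epithelial members with both P28 libraries on top it holds for Irf8, Mx1 and Mx2. The same members are among the 12 that changed over any stage in the epithelium.

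**Figure D2:**
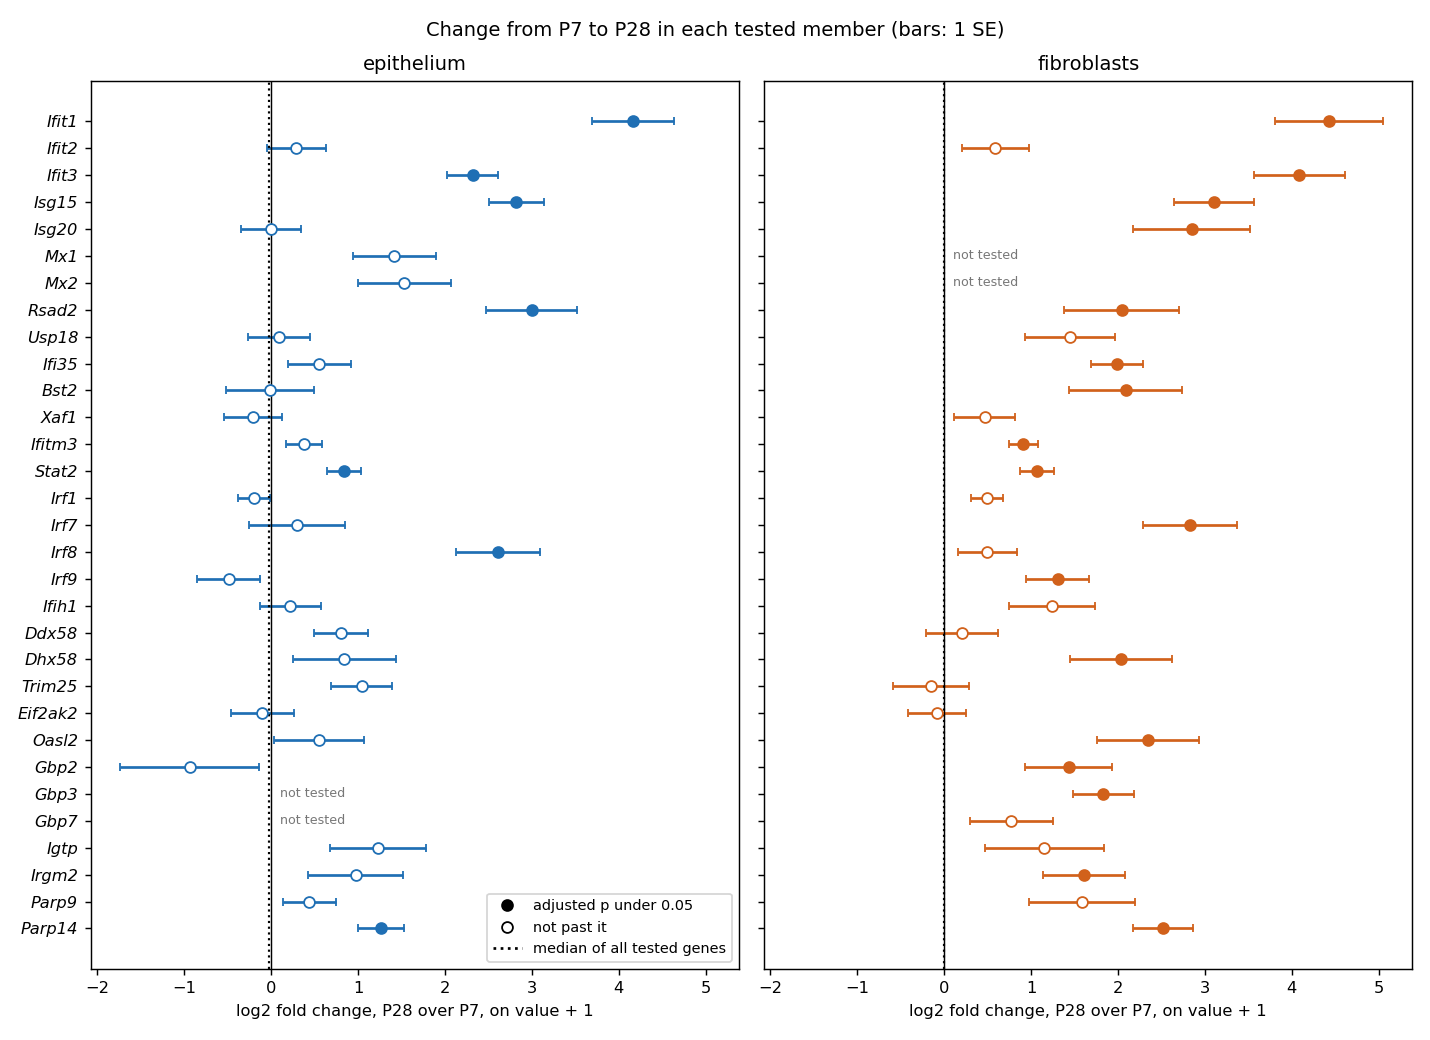
Log2 fold change from P7 to P28 of each tested member in the epithelium (left) and fibroblasts (right); points are limma estimates, bars are 1 SE, filled points passed an adjusted p of 0.05, and the dotted line is the median of all tested genes. In fibroblasts 17 points are filled, all to the right of 0, and in the epithelium 7.

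There were 6 members that rose from P7 to P28 in both cell types, namely Ifit1, Ifit3, Isg15, Rsad2, Stat2 and Parp14. How many of all tested genes rose in both, or in fibroblasts only, was not counted. Ifit1, which binds viral RNA lacking the host's cap methylation, was in the epithelium at 8.43 and 2.21 at E18.5, 4.41 and 3.11 at P0.5, 13.2 and 9.89 at P2, 8.59 and 3.64 at P7, and 112 and 125 at P28. Both P28 libraries stood far above the other 8, and the change from P7 was 4.16 (SE 0.47, adjusted p = 5.08e-05). In fibroblasts it was at 0.281 and 4.27 at E18.5, 0.629 and 1.87 at P0.5, 0 and 0.274 at P2, 0.263 and 0 at P7, and 15.4 and 34.7 at P28. The change was 4.43 (SE 0.62, adjusted p = 3.82e-05). The fibroblast P7 libraries held 1 read of Ifit1 against 139 at P28, and the ratio of reads pooled over the libraries of each stage, relative to depth, was 146 with a 95% counting interval of 25.8 to 5819. The ratios and lower bounds below are of pooled reads in the same way and can differ from the ratio of the mean values.

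Ifit3 was in the epithelium at 5.19 and 5.37 at E18.5, 12.9 and 12.7 at P0.5, 19.1 and 16.5 at P2, 14.8 and 8.67 at P7, and 59.1 and 61.9 at P28. It rose by 2.32 from P7 (SE 0.30, adjusted p = 1.60e-04). In fibroblasts it was at 2.81 and 1.28 at E18.5, 3.15 and 0.749 at P0.5, 1.42 and 1.92 at P2, 4.99 and 1.25 at P7, and 57.0 and 66.2 at P28. The fibroblast groups before P28 overlapped one another and stayed at or below 4.99, and the change from P7 was 4.09 (SE 0.52, adjusted p = 1.26e-05).

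Isg15, a ubiquitin-like protein that is conjugated to other proteins, was in the epithelium at 5.51 and 10.7 at E18.5, 12.9 and 14.1 at P0.5, 13.2 and 13.8 at P2, 7.28 and 6.71 at P7, and 61.8 and 49.8 at P28. It rose by 2.82 (SE 0.32, adjusted p = 5.16e-05). In fibroblasts it was at 3.37 and 2.99 at E18.5, 2.52 and 0.749 at P0.5, 6.40 and 3.29 at P2, 1.58 and 2.09 at P7, and 23.9 and 22.7 at P28, a rise of 3.11 (SE 0.46, adjusted p = 6.82e-05). P28 stood apart from all earlier libraries in each cell type. Usp18, the protease that removes Isg15 and restrains the type I receptor, did not pass in either (0.09 in the epithelium, 1.45 with adjusted p = 0.0529 in fibroblasts).

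Rsad2 (viperin), which makes a chain-terminating nucleotide, was in the epithelium at 2.27 and 8.52 at E18.5, 5.88 and 6.22 at P0.5, 3.19 and 5.93 at P2, 1.49 and 0.839 at P7, and 11.2 and 23.0 at P28. It rose by 2.999 (SE 0.52, adjusted p = 0.00209). In fibroblasts it was between 0 and 5.24 before P7, at 0 in both P7 libraries and at 1.18 and 6.78 at P28, a level at least 7.37-fold higher than 3 reads over the P7 group. That fibroblast call (adjusted p = 0.0339) was lost without P7 replicate 1, P7 replicate 2 or P28 replicate 2 (adjusted p = 0.134, 0.116 and 0.362), with a pseudocount of 4 (0.0506) and with no filter (0.185).

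Stat2, a signal transducer of type I interferons, fell and recovered. It was in the epithelium at 102.5 and 123 at E18.5, 66.5 and 66.2 at P0.5, 75.7 and 66.9 at P2, 48.0 and 58.8 at P7, and 92.7 and 99.4 at P28, a rise from P7 of 0.84 (adjusted p = 0.0151). In fibroblasts it was at 171 and 164 at E18.5, 181 and 226 at P0.5, 170 and 151 at P2, 69.8 and 91.0 at P7, and 168 and 167 at P28, a rise of 1.06 (SE 0.20, adjusted p = 6.47e-04). Its P28 level was thus within the range of the earlier libraries in both cell types. The epithelial call was lost without P7 replicate 1, P28 replicate 1 or P28 replicate 2 (adjusted p = 0.15, 0.0686 and 0.122).

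Parp14, an ADP-ribosyltransferase with macrodomains, was in the epithelium at 36.0 and 48.6 at E18.5, 18.7 and 27.4 at P0.5, 38.7 and 29.7 at P2, 18.3 and 19.6 at P7, and 42.9 and 51.0 at P28, a rise of 1.26 (SE 0.26, adjusted p = 0.00778). That call was lost without P7 replicate 1 or P28 replicate 2 (adjusted p = 0.0648 and 0.0908). In fibroblasts Parp14 was at 10.7 and 12.8 at E18.5, 19.2 and 15.7 at P0.5, 8.18 and 5.21 at P2, 6.83 and 3.76 at P7, and 35.7 and 32.3 at P28, a rise of 2.52 (SE 0.34, adjusted p = 2.71e-05). The epithelial P28 values fell within the span of the earlier stages or just above it, whereas both fibroblast P28 libraries lay above all earlier ones. Parp9, its neighbour and partner, did not pass in either cell type at this step (0.44 in the epithelium, 1.59 with adjusted p = 0.0734 in fibroblasts).

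**Figure D3:**
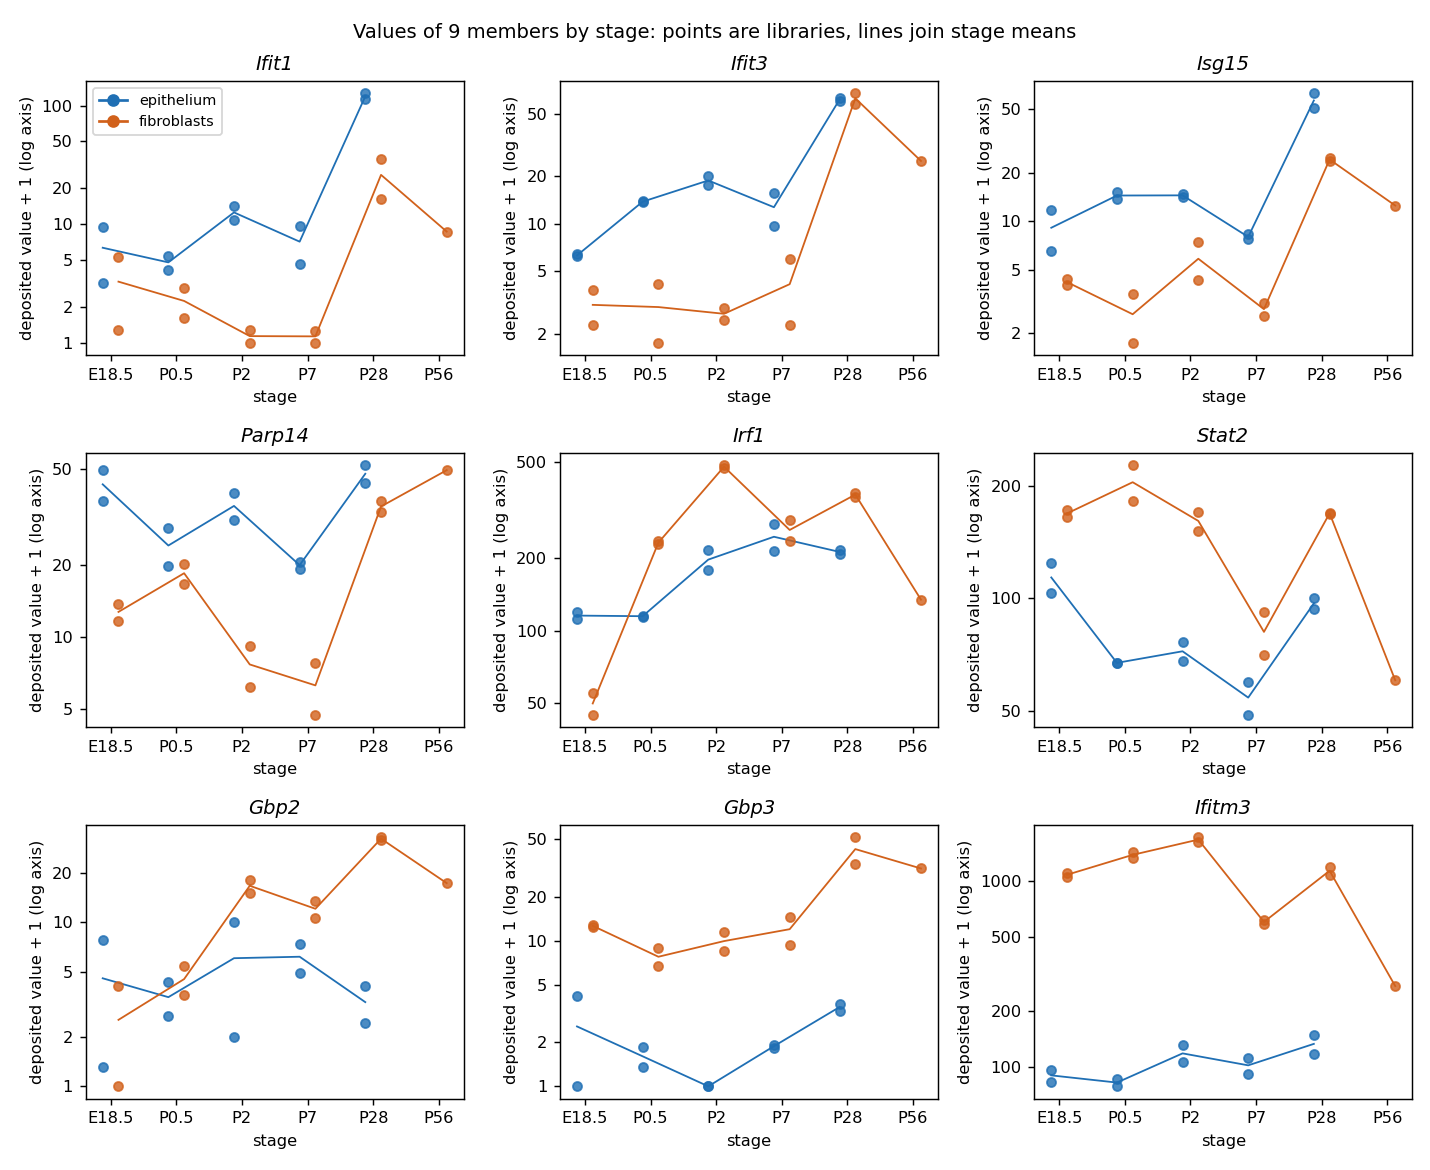
Deposited value + 1 on a log axis by stage for 9 members, with 1 point per library and lines through stage means, epithelium in blue and fibroblasts in orange. Ifit1, Ifit3 and Isg15 lie highest at P28 in both cell types, Irf1 in fibroblasts rises from 53.9 and 43.9 at E18.5 to 483 and 471 at P2, and Gbp2 in fibroblasts is highest at P28 while its epithelial points overlap between stages.

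Markers of other cells moved with this step. The sum over the 20 leukocyte markers listed in the epithelial tables was 199 to 487 at E18.5, 249 to 276 at P0.5, 192 to 792 at P2, 44.2 to 65.2 at P7 and 2229 to 2242 at P28. At P7 12 to 14 of the 20 markers were at 0, and at P28 0 to 1 were. Tyrobp, an adaptor of myeloid cells, was at 703 and 642 at P28 and Ptprc, which encodes CD45, at 12.4 and 21.3, whereas the T cell gene Cd3e was at 0 and 0.576. Of the 10 fibroblast markers in the epithelium, Vim, which leukocytes also express, was at 137 and 118 at P7 and 2271 and 2346 at P28, while Col1a1 was at 7.66 and 7.55 and then 1.54 and 0.288, and Col1a2 at 8.22 and 11.2 and then 3.48 and 4.32. In fibroblasts the sum of 17 leukocyte markers was 0 to 5.78 at P7, with 12 to 17 at 0, and 68.5 and 178 at P28 in replicates 1 and 2. Siglech, which defines plasmacytoid dendritic cells, strong producers of type I interferon, was at 0.772 and 0 in the epithelium and at 0 in fibroblasts at P28. The sum of 6 markers listed for these cells was 126 to 147 in the epithelium at P7 and 669 to 819 at P28, of which Cox6a2 was at 133 and 108 and then 809 and 651, and Ly6d at 0 and 0.280 and then 3.48 and 5.18.

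Their part in the rise at P28 was not tested. At P2 the epithelial replicate 2 had a leukocyte sum of 792 against 192 in replicate 1, while Ifit1 was at 9.89 against 13.2, Ifit3 at 16.5 against 19.1 and Isg15 at 13.8 against 13.2. At P28 fibroblast replicate 2 had the larger leukocyte sum and the larger values of Ifit1 (34.7 against 15.4), Rsad2 (6.78 against 1.18) and Isg20 (16.4 against 8.27), but not of Isg15, Irf7 or Gbp3. In bulk samples such as these, fewer cells of a type and less RNA per cell cannot be told apart.

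Fibroblasts rose in 11 further members that did not pass, or were not tested, in the epithelium. Rises at this step were also more common in fibroblasts over all tested genes. Among effectors these were Isg20, Ifi35, Bst2 and Ifitm3. Isg20, an RNA exonuclease, was between 0 and 6.40 in the 8 libraries up to P7 and at 8.27 and 16.4 at P28 (2.85, SE 0.67, adjusted p = 0.00500). Ifi35, which partners with Nmi, was between 8.14 and 30.3 before P28 and at 42.5 and 32.7 then, after 8.14 and 9.19 at P7 (1.99, SE 0.30, adjusted p = 7.93e-05). Ifitm3, which blocks fusion of viruses with endosomes, was at 1049 and 1103 at E18.5, 1331 and 1421 at P0.5, 1714 and 1609 at P2, 586 and 615 at P7, and 1189 and 1072 at P28, a rise of 0.91 (SE 0.16, adjusted p = 5.00e-04). P7 was its lowest stage up to P28, and the P28 libraries lay within the range of E18.5 to P2. Bst2 (tetherin), which holds budding virions at the cell surface, was at 1.31 and 0 at P7 and 7.38 and 3.99 at P28 (2.09, adjusted p = 0.0277). At E18.5 its replicates held 18 reads and 1, with a mean of 2.74 against 5.69 at P28. Isg20 was lost without P7 replicate 2 or P28 replicate 2 (adjusted p = 0.0954 and 0.0832), and Bst2 without P7 replicate 2, P28 replicate 1 or P28 replicate 2 (0.217, 0.202 and 0.0601) and with edgeR (0.063).

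Of the transcription factors, Irf7 and Irf9 joined Stat2 in fibroblasts. Irf7, the amplifier of type I interferon production, was at 1.05 and 0 at P7 and 10.04 and 8.37 at P28, and at 0.823 to 6.82 in the 6 libraries before P7 (2.83, SE 0.54, adjusted p = 9.39e-04). Both P28 values lay above all earlier ones. Irf9, the DNA-binding part of the type I complex, went from 6.04 and 5.01 to 13.9 and 16.4 (1.30, SE 0.36, adjusted p = 0.0143), below the highest earlier value of 17.97 at P0.5. That call was lost without P7 replicate 2 or P28 replicate 2 (adjusted p = 0.0723 and 0.0905). Irf8, a factor of myeloid and B cells, did not pass in fibroblasts (10.24 and 7.93 at P7, 12.7 and 13.6 at P28). In the epithelium it was at 0.374 and 0 at P7, 2 reads in all, and at 6.56 and 5.76 at P28, a ratio of 27.3 with a counting interval of 7.03 to 233. Irf8 reached the minimum value there only through its P28 libraries, so its passing the test (adjusted p = 0.00331) is no support for the rise. The leukocyte marker sums above moved with epithelial Irf8, and their part in it was not tested.

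The interferon-inducible GTPases attack vacuoles that hold microbes, and 3 of the 5 tested in fibroblasts rose from P7 to P28, where 11.3% of all tested genes did. In the epithelium 0 of 3 did, where 4.87% of all genes did, and Gbp3 and Gbp7 were not tested there. The counts were not tested against each other. Gbp3 was at 11.8 and 11.5 at E18.5, 5.66 and 7.86 at P0.5, 7.46 and 10.4 at P2, 13.7 and 8.35 at P7, and 50.5 and 32.7 at P28 (1.83, SE 0.35, adjusted p = 8.60e-04). Gbp2 was at 3.09 and 0 at E18.5, 4.41 and 2.62 at P0.5, 14.2 and 17.3 at P2, 9.72 and 12.5 at P7, and 32.2 and 30.7 at P28. Irgm2, which guards host membranes, was between 0.944 and 4.18 before P28 and at 8.86 and 12.8 then (1.60, SE 0.47, adjusted p = 0.0206). All 3 had both P28 libraries above all earlier ones. The step from P7 in Gbp2 (1.43, adjusted p = 0.0476) was lost without any 1 of the 4 libraries of its groups or the P56 library (adjusted p = 0.0519 to 0.227), and that in Irgm2 without P7 replicate 1 or P28 replicate 2 (0.175 and 0.135).

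Of the sensors of foreign RNA, Ifih1 (MDA5), Ddx58 (RIG-I), Dhx58 (LGP2), the kinase Eif2ak2 (PKR) and the ubiquitin ligase Trim25, 1 of 5 rose in fibroblasts (11.3% of all tested genes) and 0 of 5 in the epithelium (4.87%) from P7 to P28. The 1 was Dhx58, which went from 0 and 0.418 to 1.77 and 7.58, or 1 read to 25 (ratio 26.3, counting interval 4.31 to 1080, adjusted p = 0.0176). Its mean was 4.58 at E18.5 and 3.57 at P0.5, so the P28 mean of 4.67 was near an earlier level after a low at P7. The Dhx58 call was lost without P7 replicate 1 or P28 replicate 2 (adjusted p = 0.125 and 0.243). Of the oligoadenylate synthetase family Oasl2 was tested, and it went in fibroblasts from 0.525 and 2.09 to 13.9 and 7.18 (2.35, SE 0.58, adjusted p = 0.00698). That call was lost without P7 replicate 1 or P28 replicate 1 (adjusted p = 0.101 and 0.0999). Oasl1, outside the tested set, had 0 reads in all 8 epithelial libraries up to P7 and values of 1.93 and 6.91 at P28, 29 reads in all, and in pooled reads at least 14.2-fold higher than 3 reads over the P7 group.

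Across the whole course from E18.5 to P28, 10 of 29 tested members rose in the epithelium and 0 fell, where 13.5% of all tested genes rose and 11.3% fell. In fibroblasts 11 of 29 rose and 0 fell, where 18.7% rose and 14.9% fell. The members' medians were 0.50 and 1.13, against 0.03 and 0.01 over all genes. These contrasts share their P28 libraries with those from P7. Ifit1, Ifit3 and Isg15 were again in both lists, with 4.44, 3.29 and 2.69 in the epithelium and 3.22, 4.41 and 2.54 in fibroblasts. In the epithelium the others were Irf1, Irf8, Mx1, Mx2, Rsad2, Ddx58 and Trim25. Mx1 had 2 reads at E18.5 (0.324 and 0.316) and was at 3.09 and 5.47 at P28, a ratio of 13.9 with a counting interval of 3.50 to 121. Trim25, which activates RIG-I, was at 5.51 and 4.73 at E18.5 and at 11.6 and 16.4 at P28, above all 8 earlier libraries (1.28, SE 0.35, adjusted p = 0.0147). Its P28 replicate 1 lay only just above P0.5 replicate 2 and P2 replicate 2. Ifit1, Ifit3, Isg15 and Irf1 kept their call in every fit without 1 library. Mx1, Mx2 and Irf8 reached the minimum value only through the P28 libraries, so their calls are no support for a rise, and 7 of the 10 calls were free of this. They could be refitted only without an E18.5 library. Irf8 was lost without E18.5 replicate 2 (adjusted p = 0.14) and with edgeR (0.0646), and Mx2 without E18.5 replicate 1 (0.311) and with edgeR (0.115). Rsad2 was lost without E18.5 replicate 1 or P28 replicate 2 (0.322 and 0.267) and Trim25 without E18.5 replicate 2 or P28 replicate 2 (0.0666 and 0.122). Ddx58 was lost without either E18.5 library or P28 replicate 1 (0.0514 to 0.16).

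In fibroblasts the GTPases made up 4 of the 11. Gbp2 rose by 4.004 (SE 0.50, adjusted p = 4.64e-06), Irgm2 by 2.31 (SE 0.47, adjusted p = 8.54e-04), Gbp3 by 1.72 (SE 0.35, adjusted p = 8.21e-04) and Igtp, which acts with Gbp proteins at vacuoles, by 2.63 (adjusted p = 0.00559). Igtp was at 6.46 and 0 at E18.5 and 24.2 and 10.4 at P28, and its call was lost without E18.5 replicate 2 or P28 replicate 1 (adjusted p = 0.157 and 0.0998). Irf1 rose by 2.88 (SE 0.18, adjusted p = 8.76e-10), the smallest p among the members in this comparison, and Parp14 by 1.46 (SE 0.34, adjusted p = 0.00266). Oasl2 (2.24) and Isg20 (2.11) completed the list. Both lost the call without E18.5 replicate 2 (adjusted p = 0.0983 and 0.307), Oasl2 also without P28 replicate 1 (0.085) and Isg20 without P28 replicate 2 (0.185).

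Around birth Irf1, a factor that binds interferon response elements and drives Gbp genes, was the member with the clearest change, and it was in fibroblasts. From E18.5 to P0.5, 1 of 29 tested fibroblast members rose and 0 fell, where 8.05% of all tested genes rose and 7.34% fell. That 1 was Irf1, at 53.9 and 43.9 at E18.5 and 234 and 227 at P0.5 (2.22, SE 0.18, adjusted p = 1.32e-07). It then reached 483 and 471 at P2 (1.05, SE 0.18, adjusted p = 6.21e-04), was at 234 and 287 at P7 and at 372 and 359 at P28. Each of these stages stood apart from the one before it, and the first 2 steps held without any 1 library. In the epithelium Irf1 was at 111 and 118 at E18.5 and 114 and 113 at P0.5, then at 178 and 214 at P2, 212 and 276 at P7 and 215 and 207 at P28. There it rose from P0.5 to P2 (0.77, SE 0.18, adjusted p = 0.0204), a call lost when either P0.5 library (adjusted p = 0.105 and 0.128) or the second P2 library (0.0996) was left out.

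The other steps before P7 held few calls. In the epithelium from E18.5 to P0.5, 1 of 29 rose (Ifit3, 1.14) where 7.24% of all genes rose, and 2 fell (Stat2 by 0.75 and Parp14 by 0.86) where 7.09% fell. None of the 3 held in every fit without 1 of the 4 libraries. The range of adjusted p among the lost ones was 0.0607 to 0.108 for Ifit3 (without each of the 4), 0.0997 to 0.125 for Stat2 (E18.5 replicate 2 and both P0.5 libraries) and 0.0561 to 0.305 for Parp14 (each of the 4). From P0.5 to P2 in the epithelium 3 rose (5.13% of all genes), Irf1, Parp9 (1.10) and Ddx58 (1.08), and 0 fell (3.69%). Parp9 and Ddx58 were lost without any 1 of the 4 libraries (adjusted p = 0.0627 to 0.195 and 0.0683 to 0.236).

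In fibroblasts from P0.5 to P2, Irf1 and Gbp2 (1.91, adjusted p = 0.0121) rose where 9.74% of all genes did. Parp14 (down by 1.28), Usp18 (1.68) and Oasl2 (1.75) went the other way, where 7.2% of all genes fell. Usp18 was at 2.203 and 3.37 at P0.5 and 0.355 and 0 at P2, 16 reads and 1, a ratio of 0.0566 with a counting interval of 0.00135 to 0.364. It reached the minimum value only in P0.5 replicate 2 and at P56, so its call rests on the stage where it is high and could not be refitted without either of these libraries. Oasl2 was at 4.72 and 2.62 and then 0 and 0.823, 22 reads and 3, a ratio of 0.124 (0.0237 to 0.411). Gbp2 was lost without P0.5 replicate 2 or P2 replicate 2 (adjusted p = 0.138 and 0.085). The 3 that fell were lost without P0.5 replicate 1 or P2 replicate 2 (Parp14 0.123 and 0.141, Usp18 0.0918 and 0.162, Oasl2 0.277 and 0.0578), without P0.5 replicate 2 (Parp14 0.0643, Oasl2 0.111) and without P2 replicate 1 (Usp18 0.0729, Oasl2 0.275).

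From P2 to P7, 4 of 29 tested fibroblast members fell, where 4.28% of all genes did, and 0 rose (2.36% of all genes). Ifitm3 fell by 1.47 (SE 0.16, adjusted p = 1.63e-05), Stat2 by 0.99 (adjusted p = 0.00391), Ifi35 by 1.163 (adjusted p = 0.0236) and Irf1 by 0.88 (adjusted p = 0.00573). The Ifitm3 call held without any 1 library. Stat2 was lost without P2 replicate 1 (0.0723), Irf1 without P2 replicate 1 or P7 replicate 1 (0.0723 and 0.0554) and Ifi35 without any 1 of the 4 libraries (0.0639 to 0.194). In the epithelium 0 of 29 passed with limma, where 3.71% of all genes did, and 0 passed with edgeR on recovered reads. An unadjusted limma p under 0.05 was found for 7, and the share of all genes at that level was not counted.

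At P56 the 1 fibroblast library kept part of the P28 pattern. Ifit3 was at 24.0, Isg15 at 11.5, Ifit1 at 7.65, Gbp3 at 30.3 and Parp14 at 48.6, each above all 8 libraries up to P7, and the leukocyte marker sum in that library was 3.22, with 7 of 17 markers at 0. Against P28, 5 of 29 tested members fell and 0 rose, where 19.1% of all tested genes fell and 12.2% rose, with a median over all genes of -0.12, so changes read relative to that. Ifitm3 was at 271 (-2.05, SE 0.20, adjusted p = 5.84e-07), Irf1 at 133 (-1.45, SE 0.22, adjusted p = 8.05e-05), Stat2 at 59.5 (-1.48, SE 0.24, adjusted p = 1.36e-04), Eif2ak2 at 6.58 (-1.37, adjusted p = 0.0155) and Ifi35 at 17.7 (-1.03, adjusted p = 0.0384). These tests assume that the lone library varies like the other groups. Without P28 replicate 1 Eif2ak2 and Ifi35 were lost (0.0798 and 0.158), and Ifi35 was also lost with TMM scaling (0.0977), edgeR (0.0513) and the fit with no filter (0.0615).

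The cell types were compared on CPM scaled together (joint CPM, reads per 1000000 of TMM-scaled library size) over the 20004 genes in both tables. Over the 5 shared stages 18 of 30 tested members differed, where 62.4% of all 13386 tested genes did, so the share is near the background. Of these 10 were higher in the epithelium (32.5% of all genes) and 8 in fibroblasts (29.9%), and 17 of the 18 kept the call without any 1 of the 20 libraries (Ddx58 did not, adjusted p = 0.0507 to 0.061 without epithelial P28 replicate 1, fibroblast E18.5 replicate 2, P0.5 replicate 2, P7 replicate 2 or P28 replicate 1). Those higher in fibroblasts were 4 GTPases, 3 transcription factors and the effector Ifitm3, and those higher in the epithelium were 6 effectors, Parp9, Parp14 and the sensors Ifih1 and Ddx58. No difference between roles was tested.

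Usp18 had a lowest, median and highest joint CPM of 5.29, 9.74 and 17.9 in the 10 epithelial libraries and of 0, 1.15 and 3.25 in fibroblasts, with no overlap (2.42, SE 0.18, adjusted p = 8.79e-11). Isg20 was at 12.2, 14.0 and 23.6 against 0, 3.13 and 16.1 (2.06, SE 0.27). The groups overlapped through 1 fibroblast library of P28. Ifit1 (2.06), Ifit3 (1.56), Isg15 (1.51), Parp9 (1.66), Parp14 (1.27), Rsad2 (1.11) and Ifih1 (1.05) followed on the epithelial side. Ifitm3 was at 76.35, 95.7 and 136 in the epithelium and 566, 1111 and 1618 in fibroblasts, with no overlap (-3.44, SE 0.07, adjusted p = 4.85e-20). Gbp3 was at 0, 0.814 and 2.98 against 5.48, 10.5 and 49.5 (-2.86, SE 0.22, adjusted p = 1.74e-10) and Irf8 at 0, 0.951 and 6.00 against 6.08, 9.83 and 13.4 (-2.19, SE 0.17, adjusted p = 1.43e-10). Neither overlapped, although Irf8 came close, with epithelial libraries of P28 nearest to the fibroblasts. Gbp7 (-1.81), Gbp2 (-1.20), Stat2 (-0.96), Irgm2 (-0.66) and Irf1 (-0.42) were also higher in fibroblasts. The joint fit tested genes at a CPM of 3 or more in at least 2 libraries. Gbp3 reached this in no epithelial library (highest 2.98), and Gbp7 was too low to be tested in the epithelium alone. Both thus entered through fibroblasts, and Usp18, at most at 3.25 in fibroblasts, entered through the epithelium. Their passing, here and at single stages, is therefore no support for the difference.

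**Figure D4:**
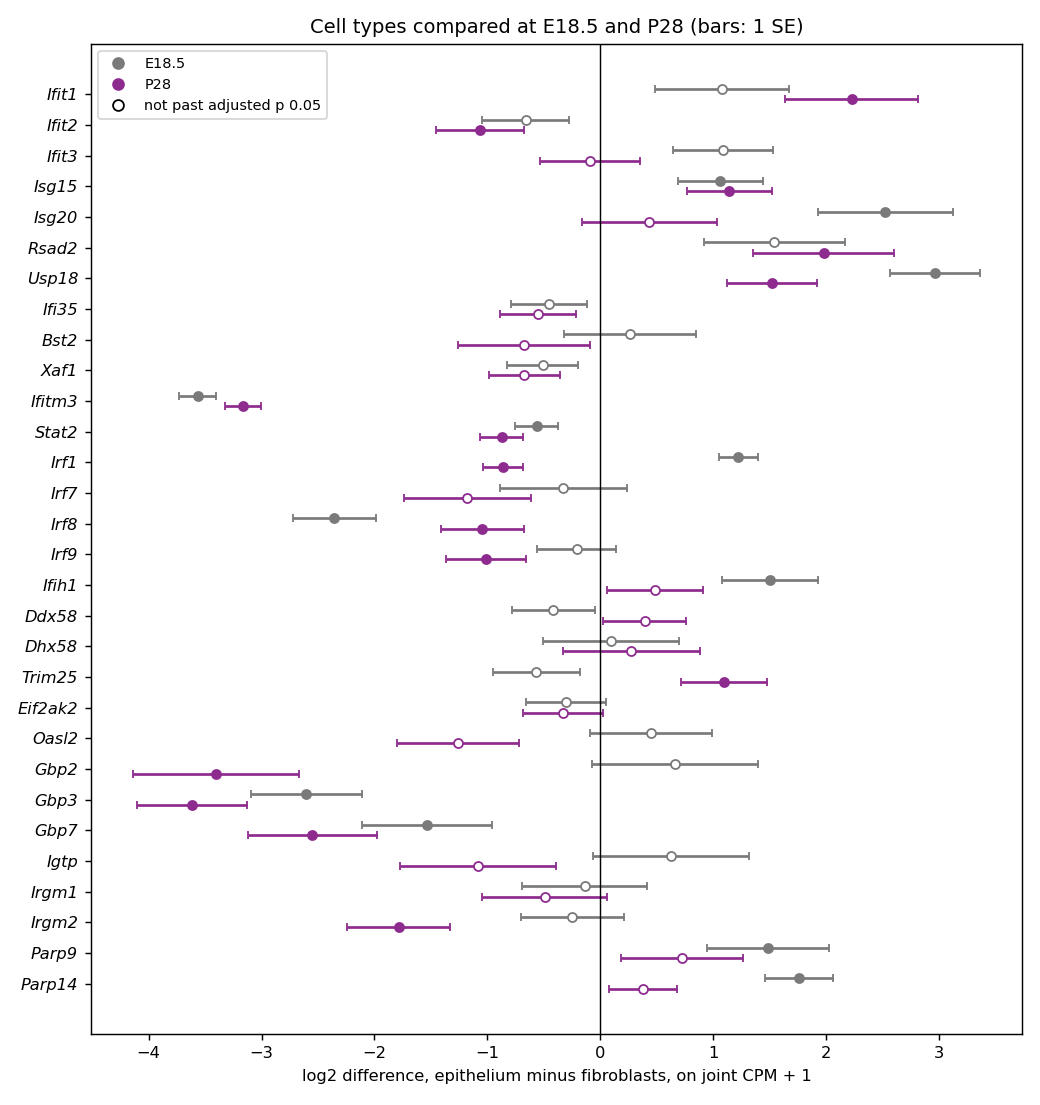
Log2 difference between epithelium and fibroblasts (joint CPM + 1) for the 30 tested members at E18.5 (grey) and P28 (purple); points are limma estimates, bars are 1 SE and filled points passed an adjusted p of 0.05. Irf1 lies at 1.23 at E18.5 and at -0.86 at P28, and the GTPases lie to the left at P28.

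By stage, 12 of 30 differed at E18.5 (7 higher in the epithelium and 5 in fibroblasts, background 38.2%, or 21.3% and 16.9%) and 15 of 30 at P28 (5 and 10, background 38.1%, or 19.5% and 18.5%). The median difference was -0.02 at E18.5 and -0.61 at P28, against 0.01 over all genes at both. Irf1 was higher in the epithelium at E18.5 (1.23, SE 0.17, adjusted p = 6.08e-06) and higher in fibroblasts at P28 (-0.86, SE 0.17, adjusted p = 3.95e-04), and both calls held without any 1 library. At E18.5 6 of the 12 calls held in every such fit (Gbp3, Ifitm3, Irf1, Irf8, Parp14 and Usp18), and at P28 6 of the 15 did (Gbp2, Gbp3, Gbp7, Ifitm3, Irf1 and Stat2). The others were lost without at least 1 of the 4 libraries of the stage, each of which ended some call. The highest adjusted p of a lost call was 0.366 at E18.5 (Parp9, without fibroblast replicate 2) and 0.321 at P28 (Ifit2, without fibroblast replicate 1).

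Whether the cell types differed in their change was tested as an interaction. From E18.5 to P28, 4 of 30 differed, where 15.1% of all genes did. The rise was larger in fibroblasts for Irf1 (-2.09 as epithelium minus fibroblasts, SE 0.25, adjusted p = 5.19e-06), which held without any 1 library. Gbp2 rose in fibroblasts and was in the epithelium at 6.81 and 0.316 at E18.5 and 3.09 and 1.44 at P28 (-4.07, SE 1.04, adjusted p = 0.0102). That difference was lost without epithelial E18.5 replicate 1 or fibroblast E18.5 replicate 2 (adjusted p = 0.0765 and 0.0715). Parp14 (-1.38, adjusted p = 0.0332) and Trim25 (1.66, adjusted p = 0.0431) were each lost without 7 of the 8 libraries left out in turn (adjusted p = 0.0517 to 0.123 and 0.0677 to 0.147). The exception was epithelial E18.5 replicate 1 for Parp14 and epithelial P28 replicate 1 for Trim25, which was also lost with edgeR (0.0508).

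From P7 to P28, a comparison added after the data were seen, 3 of 30 differed, where 8.59% of all genes did. Irf8 rose more in the epithelium (2.01, SE 0.52, adjusted p = 0.0178), and Irf9 (-1.83, SE 0.50, adjusted p = 0.0240) and Isg20 (-2.86, SE 0.85, adjusted p = 0.0382) more in fibroblasts. In the epithelium Isg20 was at 22.4 and 12.9 at P7 and 19.7 and 14.7 at P28, and Irf9 at 13.4 and 8.39 and then 6.18 and 8.64, with overlapping groups. None of the 3 held in every fit. Irf8 was lost without epithelial P7 replicate 2 or P28 replicate 1 or fibroblast P7 replicate 1 or P28 replicate 1 (adjusted p = 0.0576 to 0.0757), Irf9 without the epithelial libraries of replicate 1 or the fibroblast libraries of replicate 2 at P7 and P28 (0.076 to 0.127), and Isg20 without those 4 or epithelial P28 replicate 2 (0.0758 to 0.18). For the genes that rose in both cell types the difference did not pass, with -0.28 (SE 0.84) for Ifit1, -0.33 (SE 0.53) for Isg15, -1.81 (SE 0.63, adjusted p = 0.0796) for Ifit3 and -1.30 (SE 0.43, adjusted p = 0.0636) for Parp14. These errors leave room for differences of more than 1 on the log2 scale.

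Other interferon-stimulated genes, 47 from a list of the pathway, were also counted. From P7 to P28 7 of 28 tested rose in the epithelium (4.87% of all tested genes) and 13 of 25 in fibroblasts (11.3%), and 0 fell in either. Ly6e, a surface protein that restricts coronaviruses, rose by 1.67 in the epithelium and 2.998 in fibroblasts, Ifi27l2a by 5.61 and 3.28, and Psmb8, a subunit of the immunoproteasome, by 1.41 and 3.10. Slfn2, a gene of leukocytes, rose by 8.42 in the epithelium, from 0 in both P7 libraries to 349 and 334. Sp100, a nuclear body protein, rose by 3.48 in fibroblasts. Its change was -0.18 from E18.5 to P0.5 and 0 at both steps from there to P7. It thus met the minimum value only through P28 and P56, and its passing is no support for a rise. The other genes of this list were not checked for this. From E18.5 to P28 12 of 28 rose and 2 fell in the epithelium (13.5% and 11.3% of all genes), and 15 of 25 rose and 1 fell in fibroblasts (18.7% and 14.9%), with Cxcl10, a T cell chemokine, up by 4.47 and 6.53. In fibroblasts Cxcl10 was at 0.562 and 0.853 at E18.5, 28.9 and 28.4 at P0.5, 200 and 123 at P28 and 3.89 at P56. Ifitm1 and Ifitm2, which lie beside Ifitm3 and resemble it, fell with it from P2 to P7 (by 1.41 and 1.42).

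Of 27 genes for interferons, receptors and their signalling, 2 of 20 tested rose in the epithelium from P7 to P28 and 3 of 16 in fibroblasts, where 4.87% and 11.3% of all tested genes did, and 0 fell in either. The fibroblast genes were Ifngr1, the ligand-binding chain of the interferon gamma receptor (22.6 and 21.3 at P7, 96.6 and 79.0 at P28, up by 1.95), Jak1 (1.26) and the feedback inhibitor Socs3 (1.25). In the epithelium they were Irf5 (4.43), a factor of myeloid cells, and Socs3 (1.46). The type I receptor gene Ifnar1 was between 47.2 and 76.7 in the epithelium and 33.6 and 84.8 in fibroblasts. Of the interferon ligands in the list, Ifnb1, Ifng, Ifnl2 and Ifnl3 had rows in the epithelial tables, with values near 0. None had a row in the fibroblast tables, so ligands could not be read there. Ifnb1 was at 0 in the 8 epithelial libraries up to P7 and at 2.32 and 1.73 at P28. Ifng was highest before birth, at 2.27 and 2.52 at E18.5, then at 0 from P0.5 to P7 and at 0.772 and 1.44 at P28.

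Ifit2, Ifih1 and Xaf1 were tested in both cell types and passed no test between stages in either. Ifit2, in the same cluster as Ifit1 and Ifit3, was between 7.55 and 22.3 in the epithelium and 7.11 and 33.1 in fibroblasts, with overlapping stages. Xaf1, a regulator of apoptosis, was between 7.75 and 11.4 and between 7.61 and 15.1. Ifih1 was between 6.50 and 14.4 and between 1.67 and 7.97. Ifi44, Oas2 and Oas3 stayed at or below 1.28 in every library of both cell types.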

How the data were processed

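Epithelial cells and fibroblasts were measured in 21 libraries (11 groups). The deposited values are a normalised signal, in which each library's tags were divided by its own factor. The sources used here do not say how the authors set the factor or whether they counted by strand. The submitters' processing notes name Bowtie2 2.2.5, R 3.4.0 and mm10. Whole reads were recovered from 100% of the deposited values (tolerance 0.01 read), and libraries held 2146071 to 5729829 reads. The members and the gene lists were chosen with earlier results of these data known. Genes with a value of at least 3 in at least 2 libraries were tested within each cell type with limma 3.58.1 (R 4.3.3) on log2(value + 1), with Benjamini-Hochberg adjustment over all tested genes and a threshold of 0.05. The cell types were compared, and interactions tested, in a joint limma fit on TMM-scaled CPM of the recovered reads over 20 libraries. Alternatives were a pseudocount of 4, no filter, another scaling, edgeR 4.0.16 on recovered reads, a replicate block and each library left out in turn. The P56 library left out and the interaction from P7 to P28 were added after the data were seen. Every member could be named, and from each pathway list up to 4 genes per comparison with the smallest p among the calls; Ifnar1, Ifnb1 and Ifng were added after their values were seen. The fits were tested on simulated data. Counting intervals are exact at 95% and, like the limit for a count of 0 (3 reads), cover counting error only.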

Additional observations from a re-analysis of the deposited data

Results flagged for a closer look

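The change from E18.5 to P28 differed between the cell types by an interaction test for 4 members, given as epithelium minus fibroblasts on the log2 scale. The differences were -4.07 for Gbp2, -2.09 for Irf1, -1.38 for Parp14 and 1.66 for Trim25. From P7 to P28 they were 2.01 for Irf8, -1.83 for Irf9 and -2.86 for Isg20. Of these 7, Irf1 alone passed the test in every fit without 1 library.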

How the results depend on the processing

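Counts of called members are given as main value and range over the fits that left out 1 library. In the epithelium they were 3 (0 to 1) from E18.5 to P0.5, 3 (0 to 2) from P0.5 to P2, 0 (0 to 0) from P2 to P7, 7 (4 to 7) from P7 to P28, 10 (6 to 7) from E18.5 to P28 and 12 (8 to 14) over any stage. In fibroblasts they were 1 (1 to 4), 5 (1 to 4), 4 (1 to 4), 17 (10 to 16), 11 (8 to 14), 5 (4 to 5) from P28 to P56 and 20 (15 to 23) over any stage. Between the cell types they were 18 (17 to 19) over 5 stages, 12 (9 to 11) at E18.5, 15 (7 to 11) at P28, and 4 (1 to 4) and 3 (0 to 6) for the interactions from E18.5 and from P7. With no filter the counts were 1 in the epithelium from P0.5 to P2, and in fibroblasts 2 from P0.5 to P2, 3 from P28 to P56 and 12 over any stage. A pseudocount of 4 gave 2 in fibroblasts from E18.5 to P0.5, as did edgeR, and 8 and 7 for the interactions. The cause was not tested. Of 118 calls of a member in a comparison, 26 were lost with no filter, 7 with edgeR, 3 with a pseudocount of 4, and 0 turned direction. In fibroblasts from P7 to P28 the calls lost with no filter were Bst2, Dhx58, Gbp2, Irgm2, Isg20, Oasl2 and Rsad2 (limma, adjusted p = 0.0502 to 0.231). Replicate numbers showed no steady pairing of groups within a cell type (r from -0.170 to 0.209 over 20 pairs of groups, 2 of them over 0.1). Between the 2 cell types at one stage, r was -0.162 to 0.211 over 5 pairs (median 0.086, 2 over 0.1). Whether both cell types came from the same lungs is not given, so such a pairing cannot be settled. The main tests between cell types did not allow for it. The replicate block gave 7 members in the epithelium and 18 in fibroblasts from P7 to P28, and 2 of the 118 calls were lost with it (Ddx58 from P0.5 to P2 in the epithelium and Ifi35 from P28 to P56). Depth limits the low members: 3 reads are worth up to 1.37.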
